A study of Mus musculus with 8 samples.

Results

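The T cell receptor signalling components described here are 38 genes, chosen by name: the CD8 coreceptor, the CD3 and zeta chains, the kinases and phosphatases beside the receptor, its adaptors and surface modulators, and its downstream enzymes and transcription factors. They are 38 of the 41730 gene rows counted, and none was chosen by its level. Transcripts were counted at their 3' ends in mouse naive CD8+ T cells, obtained with a naive CD8 isolation kit. For 24 h the cells were given 2 µM of RGX-104, which activates the liver X receptors (LXR), in 4 libraries, or DMSO as the control, in 4 libraries. The labels name no receptor stimulus in either group, and the strain, sex and age of the mice were not given in these sources. No label ties a library to an animal or a culture, and the spread that p-values are based on may therefore be technical.

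The T cell receptor has no enzyme activity of its own. Its CD3 and zeta chains carry tyrosines that the kinase LCK, held by the CD8 coreceptor, phosphorylates when the receptor meets peptide on MHC class I. ZAP-70 then docks on these chains and phosphorylates the adaptors LAT and SLP-76, on which phospholipase C gamma, exchange factors and kinases assemble, and calcium, RAS and NF-κB signals follow. Phosphatases, ubiquitin ligases and diacylglycerol kinases hold the pathway down in resting cells. LXR are nuclear receptors for oxidised forms of cholesterol.

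No component was called as changed by RGX-104. Of the 38 genes 37 could be tested, and at an adjusted p under 0.05 (edgeR quasi-likelihood test, adjusted over all genes tested) 0 were higher, against 0.0996% of all 10037 genes tested, and 0 lower, against 0.00996% (0.110% in either direction). Cd2 had no count in any library. The median log2 fold change of the 37 genes, RGX-104 over DMSO, was -0.022, with 17 above 0 and 20 below, and that of all genes tested was 0.01. DESeq2 and limma-voom also called 0 of the 37. Such counts do not show that the genes were unchanged, and in RNA from whole cultures fewer cells with a transcript and less of it per cell cannot be told apart.

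Without adjustment 6 components had an edgeR p under 0.05, 1 of them (Lat) above 0, against 1.98% of all genes tested, and 5 (Prkcq, Dgka, Txk, Themis and Cd5) below 0, against 1.82%. This is 16.2% of the 37 tested, against 3.81% of all genes tested and 6.97% of the 3544 tested genes with a mean of 50 CPM or more, a level that 33 of the 37 reached. CPM are a gene's counts divided by the library's total and multiplied by 1000000, and since 3' end reads are counted once per transcript they were not divided by length. In 4 components (10.8%) the libraries of the groups did not overlap, against 3.56% of all genes tested. In 2 of them, Lat and Cd8a, RGX-104 lay above (2.20% of all genes), and in 2, Prkcq and Dgka, below (1.35%). The members were chosen with results of these data known, so these shares are a description. DESeq2 and limma-voom gave the same 6 genes without adjustment, but 9.04% and 6.65% of all genes they tested had such a p, more than with edgeR. The lowest adjusted p was 0.0848, for Dgka by DESeq2. With the number of genes detected in the model the count by edgeR was 4 (10.8%, against 2.42% of all genes tested), without Lat and Prkcq. With 1 library left out it was 5 to 8 (13.5% to 21.6%, against 3.4% to 5.68%), the highest without DMSO replicate 1, where Ptpn6 and Tec were added.

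Libraries held 16196217 to 28287445 counts, with 9772 to 10194 genes detected in DMSO replicates 1 to 3, 10908 in DMSO replicate 4 and 10442 to 10990 in the RGX-104 libraries. Of the genes with a mean of 5 to 10 CPM, DMSO replicates 1 to 3 had no count for 18.7% to 23.3%, and the other 5 libraries for 7.07% to 13.3%. The 38 genes together took 0.857% to 0.938% of the counts in DMSO and 0.844% to 0.903% in RGX-104. CD8 T cell markers summed to 6244 to 6513 (DMSO) and 5980.2 to 6825 CPM (RGX-104) (3 of 18 with no matching row). Cd8a, Cd8b1, Cd3d, Cd3e, Cd3g, Cd247, Lck, Themis and Cd5 are on this list and among the 38 genes, so its sum partly repeats their levels. Of its 15 tested genes 4 (26.7%) had an edgeR p under 0.05 without adjustment, all below 0 (Themis, Cd5, Lef1 and Il7r). This compares with 3.81% of all genes tested and 6.97% of those of 50 CPM or more. Themis and Cd5 are also counted among the components with such a p, so the share of this list partly repeats theirs. Markers of CD4 and regulatory T cells summed to 15.4 to 45.0 (DMSO) and 10.4 to 19.8 CPM (RGX-104), and of B cells to 78.9 to 246 (DMSO) and 167 to 237 CPM (RGX-104) (3 of 14 at 0, 2 with no matching row). Natural killer cell markers summed to 6.94 to 60.5 (DMSO) and 10.9 to 55.6 CPM (RGX-104) (3 of 9 at 0), with Prf1 the highest of them (mean 21.2 CPM). Macrophage and monocyte markers summed to 11.2 to 30.9 (DMSO) and 12.4 to 33.8 CPM (RGX-104) (5 of 15 at 0) and dendritic cell markers to 9.41 to 43.1 (DMSO) and 20.4 to 48.2 CPM (RGX-104) (4 of 9 at 0), nearly all of it Irf8 (mean 31.3 CPM). Stromal and endothelial markers summed to 63.8 to 124 (DMSO) and 68.6 to 122 CPM (RGX-104) (4 of 9 at 0), nearly all of it Pecam1 (mean 89.7 CPM), and erythroid and platelet markers to 5.26 to 55.4 (DMSO) and 5.74 to 29.1 CPM (RGX-104) (4 of 9 at 0). The part of other cells in any result below was not tested.

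**Figure D1:**
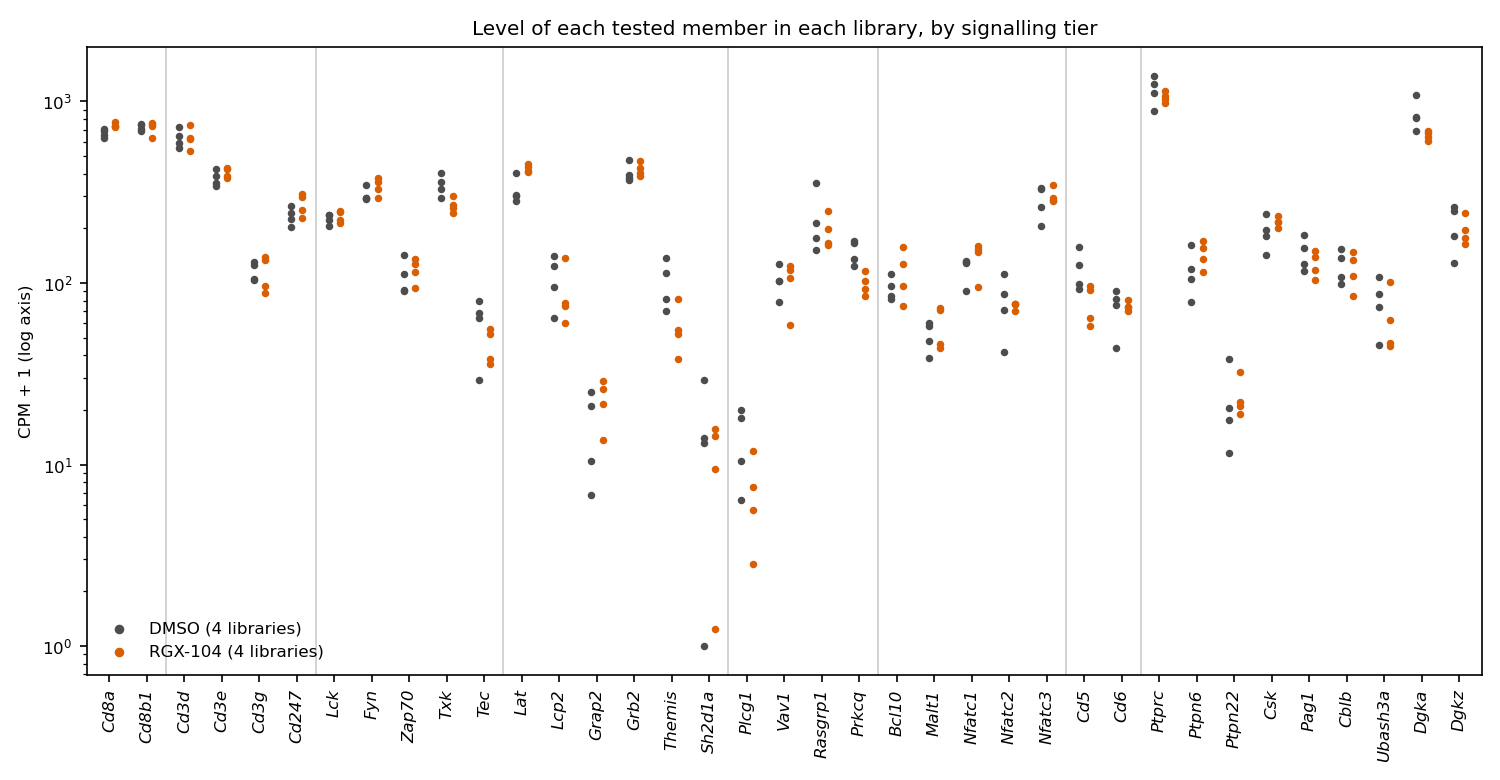
Level of each of the 37 tested components in each of the 8 libraries, in CPM + 1 on a log axis, grouped by signalling tier; grey points are DMSO libraries and orange points RGX-104 libraries. Ptprc and Dgka are the most abundant and Plcg1 and Sh2d1a the least, and in most genes the points of the groups are interleaved.

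The CD8 coreceptor is a pair of chains that bind MHC class I and bring LCK to the receptor. Cd8a, the alpha chain, was at 703, 656, 627 and 687 CPM in DMSO replicates 1 to 4 and 729, 773, 732 and 722 CPM in RGX-104 replicates 5 to 8. The groups did not overlap, with RGX-104 higher, although its lowest library and the highest DMSO library were only 722 and 703 CPM. The log2 fold change was 0.13 ± 0.10 (SE, edgeR, 95% interval -0.091 to 0.35, adjusted p = 1.00), and with levels scaled by DESeq2 size factors the groups overlapped. Cd8b1, the beta chain, was at 702, 739, 749.5 and 686 CPM in DMSO replicates 1 to 4 and 731, 758, 627 and 749 CPM in RGX-104 replicates 5 to 8, with overlapping groups and a log2 fold change of -0.022 ± 0.11 (95% interval -0.25 to 0.20). The ratio of Cd8a to Cd8b1 counts within a library was 1.00, 0.887, 0.836 and 1.00 in DMSO and 0.997, 1.02, 1.17 and 0.964 in RGX-104, so this ratio overlapped between the groups. The genes are neighbours on chromosome 6 of GRCm38.p6, Cd8b1 at 71322788 to 71337492 and Cd8a at 71373427 to 71379171.

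The CD3 and zeta chains carry the signal of the receptor across the membrane. Cd3d was the most abundant of the 4, at 585, 553, 644 and 725 CPM (DMSO) and 622, 741, 624 and 534 CPM (RGX-104) in the same replicate order. Cd3e, which forms dimers with the delta and the gamma chain, was at 340.5, 388, 353 and 421 CPM (DMSO) and 425, 385, 379 and 429.5 CPM (RGX-104). Cd3g was the least abundant, at 104, 129.8, 102 and 124 CPM (DMSO) and 139, 132, 95.4 and 87.4 CPM (RGX-104). The groups overlapped in each of these genes, and the RGX-104 values of Cd3g fell into a higher pair, replicates 5 and 6, and a lower pair. Cd247, the zeta chain with the largest number of signalling tyrosines, was at 223, 264, 241 and 202 CPM (DMSO) and 226, 308, 251 and 298 CPM (RGX-104), where the RGX-104 libraries reached higher but overlapped with DMSO. The log2 fold changes were -0.011 ± 0.13, 0.089 ± 0.13, -0.037 ± 0.21 and 0.20 ± 0.15 for Cd3d, Cd3e, Cd3g and Cd247 (SE, edgeR, adjusted p = 1.00 for each). Their 95% intervals lay within -0.48 and 0.53. The summed level of the 4 chains was 1350.2 ± 90.4 CPM (DMSO) and 1419 ± 102 CPM (RGX-104) (mean ± SD, n = 4 per group). Cd3g, Cd3d and Cd3e lie in a row on chromosome 9 between 44969572 and 45009663. Cd247 (chromosome 1, 165779952 to 165871153) overlaps Pou2f1, which had means of 117 ± 32.1 (DMSO) and 127 ± 33.8 CPM (RGX-104), and their reads could have been mixed, since no source used here gives the strand setting of the counting.

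The kinases that act first are the SRC family members LCK and FYN, followed by the SYK family member ZAP-70 and the TEC family. Lck was at 221, 204, 234 and 237 CPM (DMSO) and 221, 248, 212 and 244 CPM (RGX-104), within the DMSO range in 2 RGX-104 libraries and above it in the other 2. Fyn was at 293, 343, 289 and 293 CPM (DMSO) and 292, 327, 361 and 376 CPM (RGX-104) and Zap70 at 141, 90.6, 112 and 89.7 CPM (DMSO) and 92.7, 134, 114 and 125 CPM (RGX-104), both with overlapping groups. The log2 fold changes were 0.030 ± 0.15 for Lck, 0.14 ± 0.14 for Fyn and 0.090 ± 0.22 for Zap70 (SE, edgeR). The intervals of Lck and Fyn, -0.28 to 0.34 and -0.15 to 0.43, lay within changes of 2-fold, as did that of Zap70 (-0.36 to 0.54). These intervals rest on the spread between libraries, which may be technical.

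Txk, a TEC family kinase also called RLK, was at 401, 293, 329 and 358 CPM in DMSO replicates 1 to 4 and 241, 257, 267 and 299 CPM in RGX-104 replicates 5 to 8. The highest RGX-104 library, replicate 8, lay just above the lowest DMSO library, replicate 2, and the other 3 RGX-104 libraries lay below all DMSO libraries. Scaled by DESeq2 size factors, the groups of Txk did not overlap. The log2 fold change was -0.39 ± 0.15 (SE, edgeR, 95% interval -0.70 to -0.088, unadjusted p = 0.0143, adjusted p = 1.00). With 1 library left out it ran from -0.47 to -0.31, the weakest without DMSO replicate 1 (edgeR, unadjusted p = 0.0481). Tec, the neighbour of Txk and the founding kinase of the family, was at 28.4, 67.1, 62.9 and 78.4 CPM (DMSO) and 51.7, 37.0, 34.7 and 54.5 CPM (RGX-104). On chromosome 5 Tec lies at 72755718 to 72868654 and Txk at 72695978 to 72752992. The log2 fold change of Tec was -0.43 ± 0.35, which was -0.66 without DMSO replicate 1 and -0.26 without DMSO replicate 4.

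The adaptors hold no catalytic activity and link the kinases to their targets. Lat, the membrane adaptor on which the signalling complex is built, was at 300.2, 283, 401 and 306 CPM in DMSO replicates 1 to 4 and 434, 453, 411 and 405 CPM in RGX-104 replicates 5 to 8. The groups did not overlap, with the RGX-104 libraries higher and DMSO replicate 3 at 401 CPM, close to RGX-104 replicate 8 at 405 CPM. The log2 fold change was 0.39 ± 0.14 (SE, edgeR, 95% interval 0.10 to 0.67, unadjusted p = 0.0111, adjusted p = 1.00). It ran from 0.32 to 0.50 when 1 library was left out, with the highest value without DMSO replicate 3. Adding the number of genes detected to the model gave 0.37 (edgeR, unadjusted p = 0.0569, adjusted p = 1.00). Lat lies at chromosome 7, 126363827 to 126369705.

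Lcp2, which encodes SLP-76, the adaptor that joins LAT in this complex, was at 105 ± 34.0 CPM (DMSO) and 86.2 ± 34.0 CPM (RGX-104) and overlapped between the groups. The ratio of Lat to Lcp2 counts was 2.44, 3.01, 2.85 and 4.86 in DMSO and 7.30, 6.17, 5.40 and 2.98 in RGX-104, so RGX-104 replicate 8 lay within the DMSO range. Grap2, which encodes GADS, the bridge between LAT and SLP-76, was at 14.9 ± 8.58 CPM (DMSO) and 21.5 ± 6.56 CPM (RGX-104). Grb2, which brings the RAS exchange factor SOS, was the most abundant adaptor at 393, 472, 379.8 and 367 CPM (DMSO) and 386, 428, 402 and 466 CPM (RGX-104), with a log2 fold change of 0.045 ± 0.13.

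Themis, a T cell adaptor first known from its role in thymocyte selection, was at 136, 68.8, 80.4 and 112 CPM in DMSO replicates 1 to 4 and 37.3, 51.3, 54.1 and 81.1 CPM in RGX-104 replicates 5 to 8. The RGX-104 libraries 5, 6 and 7 lay below all DMSO libraries, and replicate 8 lay above DMSO replicates 2 and 3. The log2 fold change was -0.85 ± 0.29 (SE, edgeR, 95% interval -1.46 to -0.24, unadjusted p = 0.00927, adjusted p = 1.00), the lowest among components of 50 CPM or more. With 1 library left out it ran from -1.09 to -0.66, the weakest without DMSO replicate 1 (edgeR, unadjusted p = 0.0456). Sh2d1a, which encodes the small adaptor SAP, was the least abundant adaptor at 0, 13.1, 28.3 and 12.1 CPM (DMSO) and 0.247, 8.44, 13.3 and 14.8 CPM (RGX-104). DMSO replicate 1 had no count and RGX-104 replicate 5 had 7, so its log2 fold change of -0.55 ± 1.31 says little.

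**Figure D2:**
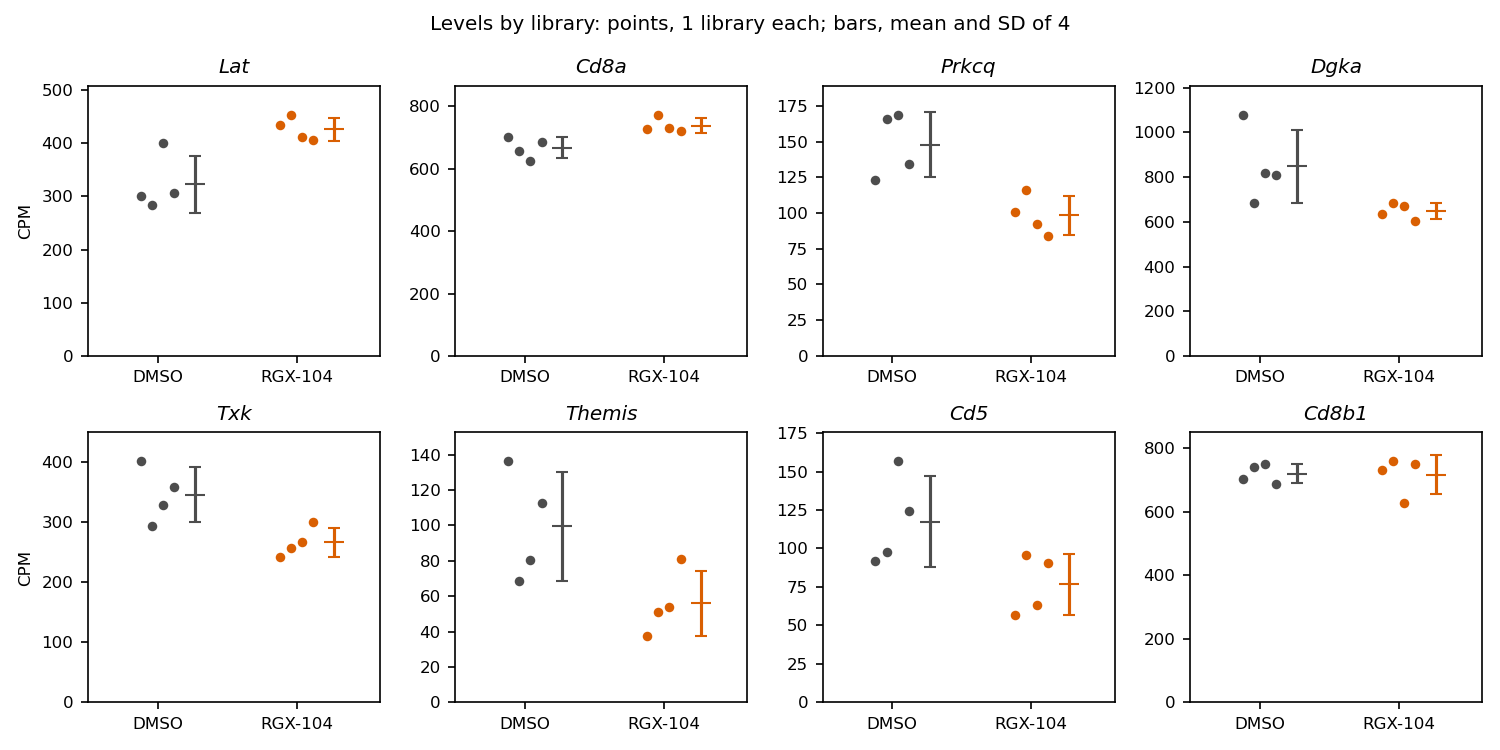
Levels in CPM of 8 components on linear axes from 0; each point is 1 library, and the bar beside the points gives the mean and SD of the 4 libraries. Lat and Cd8a have RGX-104 points above all DMSO points, Prkcq and Dgka below, Txk, Themis and Cd5 overlap in part, and Cd8b1 overlaps.

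The enzymes of the next step make or read second messengers. Prkcq, which encodes protein kinase C theta, the diacylglycerol-dependent kinase that leads to NF-κB in T cells, was at 123, 166, 169 and 134 CPM in DMSO replicates 1 to 4 and 101, 116, 92.2 and 83.9 CPM in RGX-104 replicates 5 to 8. The groups did not overlap, with the RGX-104 libraries lower and RGX-104 replicate 6 and DMSO replicate 1 the closest. On the log2 scale RGX-104 over DMSO was -0.60 ± 0.20 (SE, edgeR, 95% interval -1.02 to -0.19, unadjusted p = 0.00633, adjusted p = 1.00). It ran from -0.70 to -0.54 when 1 library was left out, was -0.50 with the number of genes detected in the model (edgeR, unadjusted p = 0.0575, adjusted p = 1.00) and -0.49 against DMSO replicate 4 alone. DESeq2 gave -0.62 with an adjusted p of 0.1000. Prkcq lies at chromosome 2, 11171905 to 11301226.

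Rasgrp1, the RAS exchange factor that diacylglycerol recruits, was the most abundant of this tier at 175, 354, 214 and 151 CPM (DMSO) and 247, 197, 161 and 166 CPM (RGX-104). DMSO replicate 2 was high in this gene, and without it the log2 fold change of -0.22 became 0.08. Vav1, an exchange factor that acts on the actin cytoskeleton, was at 102 ± 19.5 CPM (DMSO) and 101 ± 29.7 CPM (RGX-104), with a log2 fold change of -0.026 ± 0.25. Plcg1, the phospholipase that makes diacylglycerol and inositol trisphosphate, was the least abundant at 17.1, 9.52, 19.1 and 5.40 CPM (DMSO) and 1.84, 10.9, 4.63 and 6.53 CPM (RGX-104). Its log2 fold change of -1.11 ± 1.08 had a 95% interval of -3.37 to 1.15 and was 0.11 against DMSO replicate 4 alone. That interval holds changes of 2-fold in both directions, so no such change in Plcg1 could be told from none.

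Dgka and Dgkz encode diacylglycerol kinases, which remove diacylglycerol and so dampen the RAS and protein kinase C branches. Dgka was at 1078, 685, 819 and 809 CPM in DMSO replicates 1 to 4 and 634, 682, 672 and 602 CPM in RGX-104 replicates 5 to 8. The RGX-104 libraries were all lower than the DMSO libraries, but RGX-104 replicate 6 and DMSO replicate 2 were only 682 and 685 CPM, and DMSO replicate 1 stood above the rest. This gave a log2 fold change of -0.41 ± 0.13 (SE, edgeR, 95% interval -0.68 to -0.13, unadjusted p = 0.00550, adjusted p = 1.00). Without DMSO replicate 1 it was -0.27 ± 0.12 (edgeR, unadjusted p = 0.0339, adjusted p = 1.00), and without DMSO replicate 2 it was -0.50 ± 0.13, with an adjusted p of 0.562. Dgkz was at 128, 249, 180.3 and 262 CPM (DMSO) and 163, 242, 196 and 175 CPM (RGX-104), with overlapping groups and a log2 fold change of -0.10 ± 0.21. The ratio of Dgka to Dgkz counts was 8.42, 2.75, 4.54 and 3.09 in DMSO and 3.90, 2.81, 3.43 and 3.43 in RGX-104, so it overlapped, with DMSO replicate 1 far above the others. Dgka lies at chromosome 10, 128720131 to 128745084 and overlaps the long noncoding RNA Gm31504, whose means were 61.6 ± 23.2 (DMSO) and 81.8 ± 12.4 CPM (RGX-104).

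Promoter sequence was looked at because LXR acts on DNA through a DR4 element, a pair of nuclear receptor half-sites AGGTCA in the same orientation with 4 bases between them. RefSeq windows on GRCm38.p6 of 250 bases before to 50 after a listed start were at hand for 31 of the 38 genes, as 46 windows. On both strands, with overlaps allowed, the DR4 element was in 0 of the 46 and in 0.0152% of all 32851 windows, and the half-site in 5 of the 46 (10.9%, in Dgka, Grap2, Lcp2, Vav1 and Zap70) against 16.3% of all. The RUNX family motif TGTGGT was in 5 (10.9%, in Lat, Lck, Ptpn22, Txk and Zap70) against 16.8%, and the ETS family motif CCGGAAG in 1 (2.17%, Bcl10) against 8.86%. These are matches of letters in a short window, not sites. Of the 3 genes with no overlap between the groups and an unadjusted edgeR p under 0.05, the windows of Lat and of 1 of the 4 listed starts of Dgka held a match and are shown, 5′ to 3′ on the strand of the gene. Capitals mark the RUNX motif in Lat, bases 246 to 251 on the opposite strand, and the half-site in Dgka, bases 20 to 25. The window of Prkcq held none of these motifs. The windows are chr7:126369519-126369818 and chr10:128745035-128745334, both on the minus strand.
Lat: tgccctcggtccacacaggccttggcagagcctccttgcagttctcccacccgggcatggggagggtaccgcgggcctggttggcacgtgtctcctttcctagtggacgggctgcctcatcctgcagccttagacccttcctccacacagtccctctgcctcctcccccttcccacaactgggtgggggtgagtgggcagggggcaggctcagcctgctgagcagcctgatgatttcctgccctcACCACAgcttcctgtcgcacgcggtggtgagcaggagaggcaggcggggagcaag
Dgka: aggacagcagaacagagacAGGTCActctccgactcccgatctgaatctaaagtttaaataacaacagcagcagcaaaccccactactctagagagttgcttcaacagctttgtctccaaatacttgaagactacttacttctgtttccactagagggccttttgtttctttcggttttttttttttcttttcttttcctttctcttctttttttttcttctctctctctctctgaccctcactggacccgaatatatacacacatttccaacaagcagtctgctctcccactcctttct

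Downstream, BCL10 and MALT1 belong to the complex that activates NF-κB, and the NFAT factors enter the nucleus when calcium activates calcineurin. All 5 of these genes had overlapping groups. Nfatc3 was the most abundant at 328, 261, 204 and 331 CPM (DMSO) and 345, 291, 281 and 287 CPM (RGX-104) and Malt1 the least at 59.4, 47.1, 37.4 and 57.2 CPM (DMSO) and 45.4, 71.3, 70.1 and 42.7 CPM (RGX-104). Bcl10 was at 92.4 ± 13.7 and 113 ± 36.0 CPM, Nfatc1 at 119.7 ± 20.1 and 138 ± 29.7 CPM and Nfatc2 at 76.6 ± 29.2 and 74.1 ± 3.59 CPM (DMSO and RGX-104, mean ± SD, n = 4 per group). The log2 fold changes lay between -0.065 (Nfatc2) and 0.27 (Bcl10), 4 of them above 0.

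CD5 and CD6 are scavenger receptor family proteins that tune the receptor signal, and the level of CD5 on the surface is known to follow the strength of self recognition. Cd5 was at 91.6, 97.8, 157 and 124 CPM in DMSO replicates 1 to 4 and 56.6, 95.8, 63.3 and 90.7 CPM in RGX-104 replicates 5 to 8. RGX-104 replicates 5, 7 and 8 lay below all DMSO libraries, replicate 8 only just (90.7 against 91.6 CPM in DMSO replicate 1). RGX-104 replicate 6 at 95.8 CPM lay above DMSO replicate 1. On the log2 scale the difference was -0.63 ± 0.25 (SE, edgeR, 95% interval -1.15 to -0.11, unadjusted p = 0.0195, adjusted p = 1.00). Without DMSO replicate 3 it was -0.48 (edgeR, unadjusted p = 0.0849), without RGX-104 replicate 5 it was -0.52 (unadjusted p = 0.0613) and without RGX-104 replicate 7 -0.55 (unadjusted p = 0.0548). Cd6, its neighbour on chromosome 19, was at 74.9, 89.6, 80.6 and 42.7 CPM (DMSO) and 79.1, 72.6, 68.7 and 73.2 CPM (RGX-104), with a log2 fold change of 0.015 ± 0.27. The RGX-104 values of Cd6 were close together, and DMSO replicate 4 was the lowest of all 8.

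Cd2, the receptor for CD48 on T cells, was listed at 0 in all 8 libraries. For 3 counts over all libraries this allows up to 0.0186 CPM, for counting error of independent reads only, and no source used here says whether reads were collapsed to molecules. In RefSeq on GRCm38.p6 the gene lies at chromosome 3, 101275908 to 101287939 and no other gene overlaps it. CD2 is known as a general surface protein of T cells, so the 0 is given as a property of the table, and its cause was not tested.

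The remaining genes dampen or set the threshold of the pathway. Ptprc, which encodes CD45, the phosphatase that keeps LCK ready, was the most abundant component at 1387, 1252, 889 and 1105 CPM in DMSO replicates 1 to 4 and 976, 1076, 1028 and 1134 CPM in RGX-104 replicates 5 to 8. The groups overlapped, DMSO replicates 1 and 2 were the highest, and the log2 fold change was -0.15 ± 0.12 (95% interval -0.41 to 0.10). A 3' end count does not separate the CD45 splice forms. Csk, the kinase that inactivates LCK and FYN, was at 189 ± 39.5 CPM (DMSO) and 216 ± 13.4 CPM (RGX-104), and Pag1, the membrane adaptor that holds it, at 145 ± 30.2 CPM (DMSO) and 127 ± 20.8 CPM (RGX-104). Ptpn6, which encodes the phosphatase SHP-1, was at 115 ± 34.6 CPM (DMSO) and 143 ± 24.9 CPM (RGX-104), with a log2 fold change of 0.30 ± 0.23, which was 0.50 without DMSO replicate 1 and 0.14 without DMSO replicate 3. Ptpn22, a phosphatase that acts with CSK, was the least abundant of the tier at 19.4, 10.5, 37.2 and 16.6 CPM (DMSO) and 21.1, 31.2, 17.9 and 20.0 CPM (RGX-104).

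The ubiquitin ligase gene Cblb was at 123 ± 25.4 CPM (DMSO) and 118 ± 28.2 CPM (RGX-104) and Ubash3a, which encodes a phosphatase family protein that binds ubiquitin, at 77.6 ± 26.1 CPM (DMSO) and 62.7 ± 25.9 CPM (RGX-104). Of the 9 genes of this tier 3 had a log2 fold change above 0 and 6 below, and those other than Dgka lay between -0.32 (Ubash3a) and 0.30 (Ptpn6). In Ubash3a the sign was the opposite against DMSO replicate 4 alone (0.47) and with the number of genes detected in the model (0.12).

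**Figure D3:**
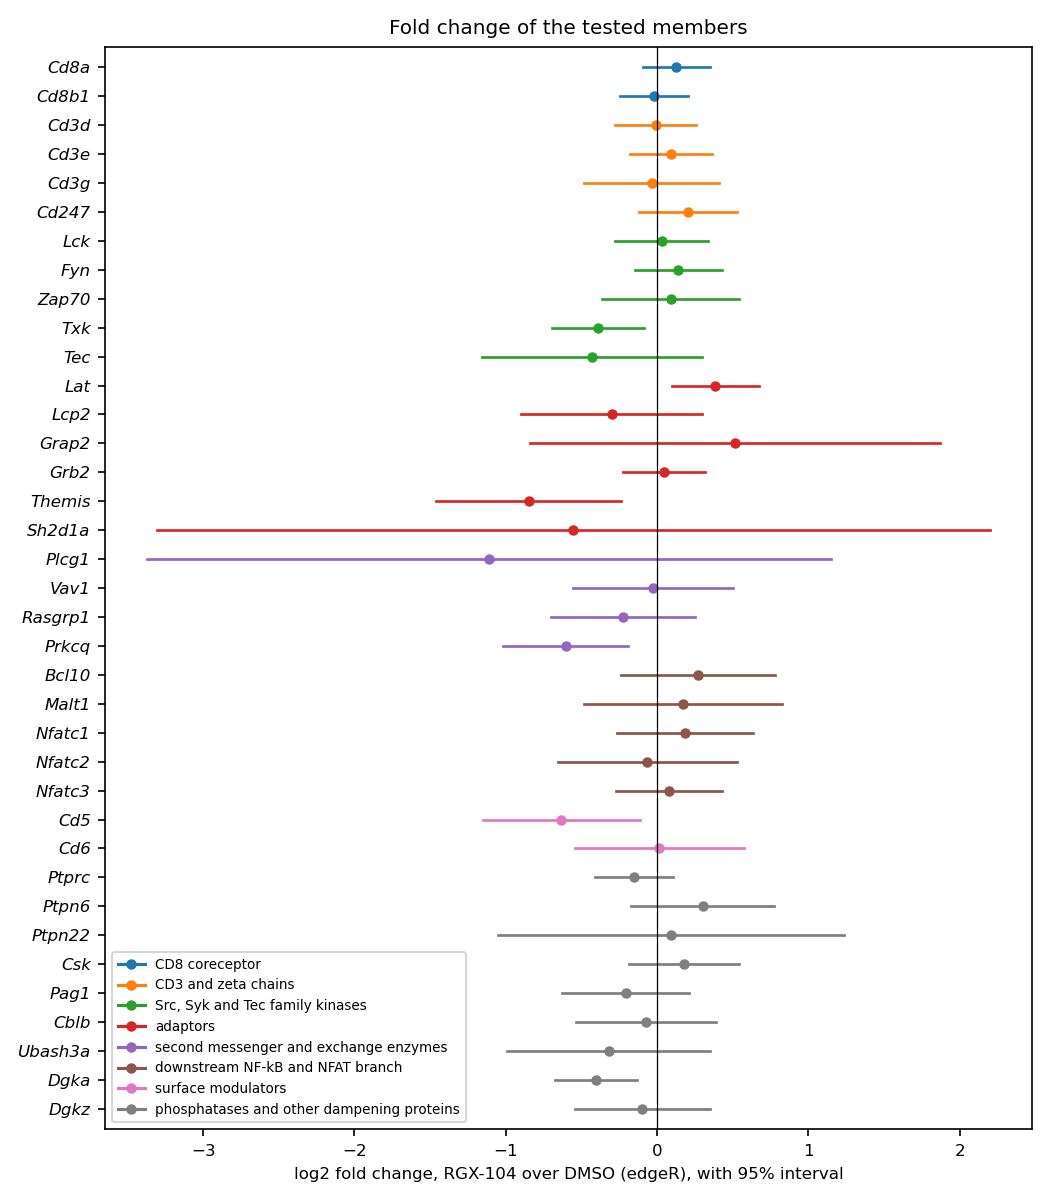
Log2 fold change of the 37 tested components, RGX-104 over DMSO (edgeR), with 95% intervals as lines, coloured by signalling tier. The intervals of Lat, Prkcq, Dgka, Txk, Themis and Cd5 do not reach 0, and those of Sh2d1a, Plcg1 and Grap2 are the widest.

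The 95% interval of the log2 fold change lay within -1 and 1, that is within a change of 2-fold, for 29 of the 37 components (78.4%), against 34.3% of all genes tested and 85.9% of those of 50 CPM or more. This was so for both coreceptor chains, all 4 CD3 and zeta chains, all 5 genes of the NF-κB and NFAT branch and 8 of the 9 genes that dampen the pathway or set its threshold. Log2 fold changes within 0.5 of 0 were found for 31 of the 37 (83.8%), against 68.5% of all genes tested and 92.3% of those of 50 CPM or more. Among the 33 components of 50 CPM or more the coefficient of variation between libraries had a median of 19.5% in DMSO and 14.4% in RGX-104, against 22.2% and 17.6% for all tested genes at this level. The lowest were Cd8b1 in DMSO, at 4.17%, and Cd8a in RGX-104, at 3.13%.

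**Figure D4:**
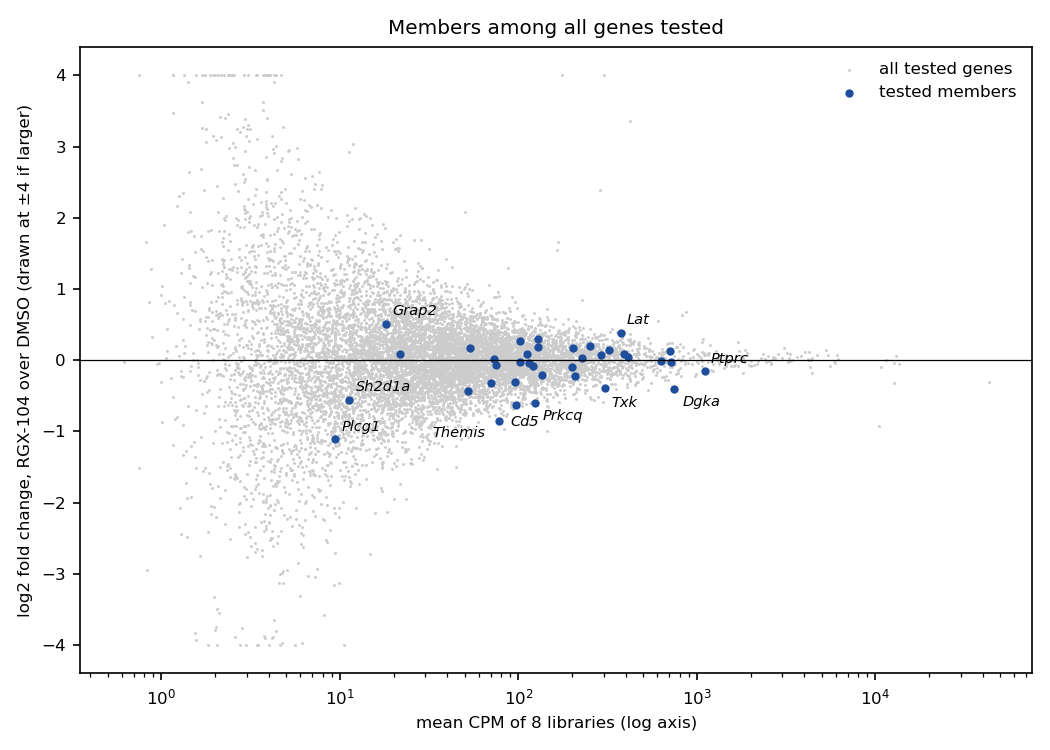
Log2 fold change (RGX-104 over DMSO) against mean CPM of the 8 libraries on a log axis; grey points are all 10037 genes tested and blue points the 37 tested components, with values beyond 4 drawn at 4. The components lie within the cloud of all genes, with Lat above 0 and Prkcq, Dgka, Txk, Themis and Cd5 below 0.

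Other genes of the pathway gave 0 calls among 61 tested of 65 listed, with 27 log2 fold changes above 0, 34 below and a median of -0.04. Without adjustment 1 (1.64%) had an edgeR p under 0.05, against 3.81% of all genes tested. Calls by DESeq2 and by limma-voom were also 0, with 4 and 2 genes having such a p, shares below those of all genes by the same tools. Among those with the smallest p, Wipf1, a partner of the actin regulator WASP, had a log2 fold change of 0.37 ± 0.18 (SE), Skap1, an adaptor of integrin activation, of -0.39 ± 0.20 and the phosphatase gene Ptpn2 of 0.69 ± 0.40.

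Among genes known to be induced when the receptor is engaged, 15 of 18 listed were tested and 0 called (0.110% of all genes tested), with 0 having an edgeR p under 0.05 without adjustment (3.81% of all). Calls by DESeq2 and by limma-voom were 0, with 1 and 2 of the 15 genes having such a p, against 9.04% and 6.65% of all genes those tools tested. The share in this list was thus below that of all genes with DESeq2 and above it with limma-voom. Egr2, Il2 and Tnf had no count. Of the 15, 12 had a log2 fold change above 0, with a median of 0.42, while 50.5% of all tested genes with a mean below 50 CPM lay above 0. Leaving out 1 library moved this median between 0.13 and 0.50. It was 0.71 with the number of genes detected in the model and 0.68 against DMSO replicate 4 alone. Of the 15, 3 reached a mean of 50 CPM (Dusp2, Myc and Nab2), and 3 of the 4 control libraries are those with the fewest genes detected.

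Dusp2, a MAP kinase phosphatase, was at 108, 101, 85.0 and 119 CPM (DMSO) and 163, 114, 158 and 126 CPM (RGX-104), with a log2 fold change of 0.42 ± 0.20 (edgeR, unadjusted p = 0.0517, adjusted p = 1.00). Nr4a1, a nuclear receptor used as a reporter of receptor signalling, was at 25.8, 13.6, 3.70 and 2.51 CPM (DMSO) and 0.283, 14.5, 25.8 and 3.86 CPM (RGX-104). Cd69, an early activation marker, was at 11.2, 1.40, 18.7 and 10.7 CPM (DMSO) and 26.3, 0, 32.9 and 14.3 CPM (RGX-104), with no count in RGX-104 replicate 6. Both genes overlapped between the groups. Egr1 was at 11.5 ± 7.65 and 24.6 ± 11.6 CPM, Nr4a3 at 14.0 ± 7.33 and 5.65 ± 3.21 CPM, Tnfrsf9 at 0.782 ± 1.56 and 4.96 ± 2.75 CPM and Myc at 60.6 ± 17.0 and 68.8 ± 20.1 CPM (DMSO and RGX-104).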

How the data were processed

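QuantSeq 3' mRNA libraries were made from total RNA, per the labels' protocols, with 4 libraries per group, grouped by the library names in the labels. The deposited table holds whole-number read counts per gene symbol, not normalized. Per the submitters' processing notes, STAR 2.7.8a, R 4.1.0, DESeq2 1.4 and GRCm38 were used. Which program counted, with which annotation and strand setting, and whether molecular identifiers were used is not given in the sources used here. Counts were tested with edgeR 4.0.16 in R 4.3.3 (quasi-likelihood test, TMM, filterByExpr with a minimum count of 10, group as the only term), with Benjamini-Hochberg adjustment over 10037 genes. The SE was taken as the size of the fitted difference over the root of the F statistic, and the 95% interval from it with the t quantile. CPM were computed from total counts. DESeq2 1.42.0, limma-voom 3.58.1, other scalings and filters, a robust prior, the genes detected as a covariate and leaving out each library were alternatives. The fits were tested on simulated data.

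The members and lists were chosen with earlier results of these data known. All 38 members are given; values per library are given for the coreceptor, CD3 and zeta chains, Lck, Zap70, Lat, the most and least abundant of each tier, and members with an unadjusted p under 0.05 or no overlap. Of other lists, up to 6 genes with the smallest p and 4 preset genes were to be named, and some of these are not reported here. Coordinates are RefSeq, GRCm38.p6, 1-based, and all 38 symbols matched.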

Additional observations from a re-analysis of the deposited data

Results flagged for a closer look

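In 116 groups of 4 libraries, for the 37 tested components, the 8 tiers and the 13 lists, in 8 a single library stood apart. The cutoff used flags about 1 in 20 groups by chance, or 5.80, if groups are independent and values normally distributed. Some groups were sums made mostly of 0, and tiers and lists shared genes, so 8 cannot be set against 5.80. DMSO replicate 2 had 343 CPM of Fyn, and the rest of that group 289 to 293 CPM. DMSO replicate 3 had 89.6 CPM of Nfatc1, and the rest 127 to 132 CPM. In RGX-104 replicate 5, Nfatc2 stood at 68.7 CPM, against 75.6 to 76.0 CPM, Nfatc3 at 345 CPM, against 281 to 291 CPM, and the 4 second messenger and exchange enzymes summed to 473 CPM, against 364 to 382 CPM. In RGX-104 replicate 7 the B cell markers summed to 237 CPM, against 167 to 173 CPM elsewhere in that group, and the gamma delta T cell markers to 8.15 CPM, against 0. The gamma delta value was Sox13 alone, since 5 of the 8 listed markers had no matching row and 2 had no count. The neutrophil markers summed to 34.7 CPM in DMSO replicate 4 and to 0 in the other DMSO libraries.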

How the results depend on the processing

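No paired analysis was possible because the labels give no pairing, with library numbers that are unique across the groups. Whether the groups shared animals or cultures is not known. No setting called a component, a listed pathway gene or a response gene. Over all genes 11 were called, 44 with DESeq2, 7 with the genes detected as a covariate and 8 to 14 with 1 library left out. The members' median of -0.022 was -0.056 to 0.036 with 1 library left out and 0.047 against DMSO replicate 4 alone, a setting chosen after seeing the data, where the groups did not overlap in 17 members, against 35.5% of all genes, and the median of all genes was 0.13. Of the members, 6 had an edgeR p under 0.05 without adjustment (16.2%, against 3.81% of all genes tested). With the genes detected as a covariate 4 did (10.8%, against 2.42%), and with 1 library left out 5 to 8 (13.5% to 21.6%, against 3.4% to 5.68%). Lat, Prkcq, Dgka, Txk, Themis, Cd5, Cd8a, Cd247, Fyn, Zap70, Tec, Grap2, Nfatc1, Ptprc, Ptpn6 and Csk kept their sign under every setting. Against DMSO replicate 4 alone the log2 fold change changed sign in Cd8b1 (0.028), Cd3e (-0.094), Lck (-0.067), Lcp2 (0.42), Plcg1 (0.11), Rasgrp1 (0.32), Bcl10 (-0.0060), Malt1 (-0.031), Nfatc2 (0.050), Nfatc3 (-0.17), Pag1 (0.095), Cblb (0.24) and Ubash3a (0.47). With the genes detected as a covariate it did so in Cd8b1 (0.0030), Cd3g (0.037), Lck (-0.071), Vav1 (0.010), Rasgrp1 (0.28), Cblb (0.083) and Ubash3a (0.12). Cd3d was at 0.0071 with total counts only and 0.0044 with limma-voom, Cd3g at 0.016 with limma-voom, and Cd6 at -0.0030 with DESeq2 size factors and -0.0031 with DESeq2. With 1 library left out the range spanned 0 in Cd8b1 (-0.056 to 0.036), Cd3d (-0.10 to 0.072), Cd3g (-0.15 to 0.066), Lck (-0.020 to 0.068), Grb2 (-0.012 to 0.12), Sh2d1a (-0.98 to 0.10), Vav1 (-0.14 to 0.16), Rasgrp1 (-0.37 to 0.078), Nfatc2 (-0.28 to 0.15), Nfatc3 (-0.055 to 0.17), Cd6 (-0.17 to 0.13), Ptpn22 (-0.13 to 0.51), Cblb (-0.21 to 0.052) and Dgkz (-0.27 to 0.050). The cause was not tested. How far depth limits these values was not tested.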

Other observations

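Beside Cd2, the T cell costimulatory receptor gene Cd28 was listed at 0 in all 8 libraries, and Ptprcap, which encodes a protein associated with CD45, had a mean of 0.068 CPM. The MHC class II genes H2-Aa, H2-Ab1 and H2-Eb1 were also at 0, whereas Cd74, the class II invariant chain, had a mean of 56.7 CPM over the 8 libraries.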
